A study of Rattus norvegicus with 18 samples.

Results

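The Jumonji histone demethylases of rat 9L tumour tissue and cells were followed under low oxygen. The set held 10 named genes, Kdm3a, Kdm3b, Kdm4a, Kdm4b, Kdm4c, Kdm5a, Kdm5b, Kdm6b, Kdm2a and Kdm2b, taken by name as a gene family, with earlier results of these data known. A gene was taken as measured where a probe set carried its symbol and no other in the platform's annotation. This gave 9 genes with 1 probe set each, of 14324 genes in all, and Kdm3b was not analysed here. Over the 18 arrays, between 55.5% and 91.7% of all 27363 probe sets were dimmer than the probe set of a member.

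The 9L line is a transplantable rat gliosarcoma and serves as a model of glioma. Tumours were grown in male Fischer rats, given as 6 weeks old, by tying pieces of passaged 9L tumour onto the epigastric vessels. EF5, a nitroimidazole drug that binds inside cells when oxygen is low, marked hypoxic tissue, and laser capture took 1 EF5-negative (normoxic) and 1 EF5-positive (hypoxic) region from each of 3 tumours. Cultured 9L cells were kept at about 20% oxygen (normoxic) or 0.2% oxygen (hypoxic), and 3 cultures per group were taken after 6 h or 16 h. All groups thus carry the same tumour line, no group has an engineered allele, and the captured regions also hold cells of the host. Amplified RNA was read on Affymetrix Rat Gene arrays, and every value below is a deposited log2 probe set signal. Nothing in the labels says that replicate cultures came from separate experiments, and their p-values therefore reflect only the spread of the samples at hand, which may be technical.

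Jumonji demethylases remove methyl groups from lysines of histone tails and need iron, 2-oxoglutarate and molecular oxygen as a co-substrate, so their reaction slows when oxygen is scarce. Each subfamily has its own marks: KDM3 and KDM4 enzymes act on repressive lysine 9 methylation of histone H3, KDM4 and KDM2 enzymes on lysine 36, KDM5 enzymes on the lysine 4 methylation of active promoters and KDM6B on the Polycomb mark at lysine 27. Some of these genes, KDM3A and KDM4B first among them, are textbook targets of the hypoxia-inducible factors (HIF), which bind a short DNA core of the form ACGTG or GCGTG.

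That core was searched on both strands in RefSeq promoter windows of the GRCr8 build, 250 bases before to 50 bases after each annotated start. Of 33469 windows, 41.6% held ACGTG or GCGTG and 19.3% held ACGTG. The 9 measured demethylase genes have 10 windows, of which 6 held either core and 3 held ACGTG. No match lay in the windows of Kdm4a, Kdm6b and Kdm2a. Printed below are the match of Kdm3a, all 3 of Kdm4b and the ACGTG matches of Kdm4c and Kdm5b, with 2 of the 4 of the HIF target Ankrd37 for comparison. Capitals mark the core, and CACGTG reads as ACGTG on both strands. The long Kdm4b stretch is printed because it holds all 3 of that gene's matches, and it ends where the RefSeq gene record begins. The Kdm3a match lies inside the Kdm3a gene record and past the first of its 2 annotated starts. The part of the Kdm5b window before its gene record overlaps the record of another gene, Mgat4e. A match is a description of the letters and not a binding site.
Kdm3a, chr4:105233306-105233334, minus strand, 211 bases before the second of 2 annotated starts: ccgggaggctgtGCGTGtcttgtgtgaga
Kdm4b, chr9:1245653-1245884, plus strand: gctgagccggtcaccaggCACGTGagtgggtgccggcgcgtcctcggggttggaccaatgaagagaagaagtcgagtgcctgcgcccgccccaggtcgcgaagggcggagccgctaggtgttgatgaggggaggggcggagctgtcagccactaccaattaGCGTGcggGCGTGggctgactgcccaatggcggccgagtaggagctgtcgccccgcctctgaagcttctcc
Kdm4c, chr5:93146816-93146845, plus strand, 209 bases before the start: agtttagaaatcCACGTGacccagagagcg
Kdm4c, chr5:93146848-93146877, plus strand, 177 bases before the start: cggccccgcggtCACGTGgcggatcgtgaa
Kdm5b, chr13:48554160-48554188, plus strand, 225 bases before the start: gcaaaatgtatgACGTGattgatcgattg
Ankrd37, chr16:53001472-53001501, plus strand, 23 bases before the start: ggttccgggctaCACGTGtcactgtttggg
Ankrd37, chr16:53001491-53001519, plus strand, 4 bases before the start: cactgtttgggtACGTGaggccgctgcag

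Kdm3a, an eraser of lysine 9 mono- and dimethylation, had the largest response of the 9 genes in tumours and at both culture times. It was the only one past the threshold in either culture comparison when fitted without culture numbers as blocks. At 6 h its log2 signal was 9.10, 9.15 and 8.66 in normoxic cultures 6, 13 and 26 and 9.84, 10.03 and 10.03 in the hypoxic cultures of the same numbers. At 16 h it was 9.00, 8.92 and 9.08 in normoxic cultures 22, 28 and 29 and 10.18, 10.34 and 10.20 in the hypoxic ones. Every hypoxic culture stood above every normoxic culture at both times. Kdm3a rose by 1.00 ± 0.13 log2 units (SE, n = 3 per group) at 6 h, a 2.00-fold change (limma, adjusted p = 0.00290). At 16 h it rose by 1.24 ± 0.13, or 2.36-fold (limma, adjusted p = 0.000331). The response at 16 h minus that at 6 h was 0.24 ± 0.18 log2 units, with a 95% interval from -0.15 to 0.63 (limma, adjusted p = 0.982).

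In tumours 1, 2 and 3, Kdm3a was at 7.60, 8.09 and 8.04 in normoxic tissue and at 9.91, 9.68 and 9.01 in hypoxic tissue. The ranges did not overlap, and the gap within a tumour was 2.31, 1.59 and 0.97. The mean difference of 1.62 ± 0.28 log2 units, or 3.08-fold (SE, n = 3 tumours), did not pass the threshold (limma, adjusted p = 0.218). No probe set passed it among these 6 arrays (0% called), where the smallest adjusted p was 0.106. At an unadjusted p under 0.05 stood 9.12% of probe sets and 2 of 9 members, Kdm3a and Kdm6b. Without tumour 1, which had the widest Kdm3a gap, the difference was 1.28 and passed (limma, adjusted p = 0.0331). This rests on tumours 2 and 3 alone, and 563 probe sets passed in that fit. With tumour 2 or tumour 3 left out it did not pass (limma, adjusted p up to 0.408). Nor did it pass after subtraction of array medians or quantile normalization (limma, adjusted p = 0.349 and 0.292). The Kdm3a difference also passed when all 18 arrays shared 1 estimate of the spread with pairs as blocks (limma, adjusted p = 0.00384). That fit called 1408 probe sets. The SD of the Kdm3a gaps was 0.67 in tumours, 0.33 at 6 h and 0.16 at 16 h. A spread shared with the cultures can thus understate that of the tumours. In bulk samples like these, fewer cells of a type and less RNA per cell cannot be told apart.

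Over the 6 groups the Kdm3a level ran from 10.24 ± 0.09 (SD, n = 3) in hypoxic 16 h cultures through 9.97 ± 0.11 in hypoxic 6 h cultures to 9.53 ± 0.47 in hypoxic tumour regions. Normoxic cultures followed at 9.00 ± 0.08 (16 h) and 8.97 ± 0.27 (6 h), and normoxic tumour regions were lowest at 7.91 ± 0.27. The highest group stood clear of the next, and the lowest stood clear of the one above it. The other neighbours in this order overlapped, hypoxic tumour regions and normoxic 16 h cultures among them, through tumour 3.

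**Figure D1:**
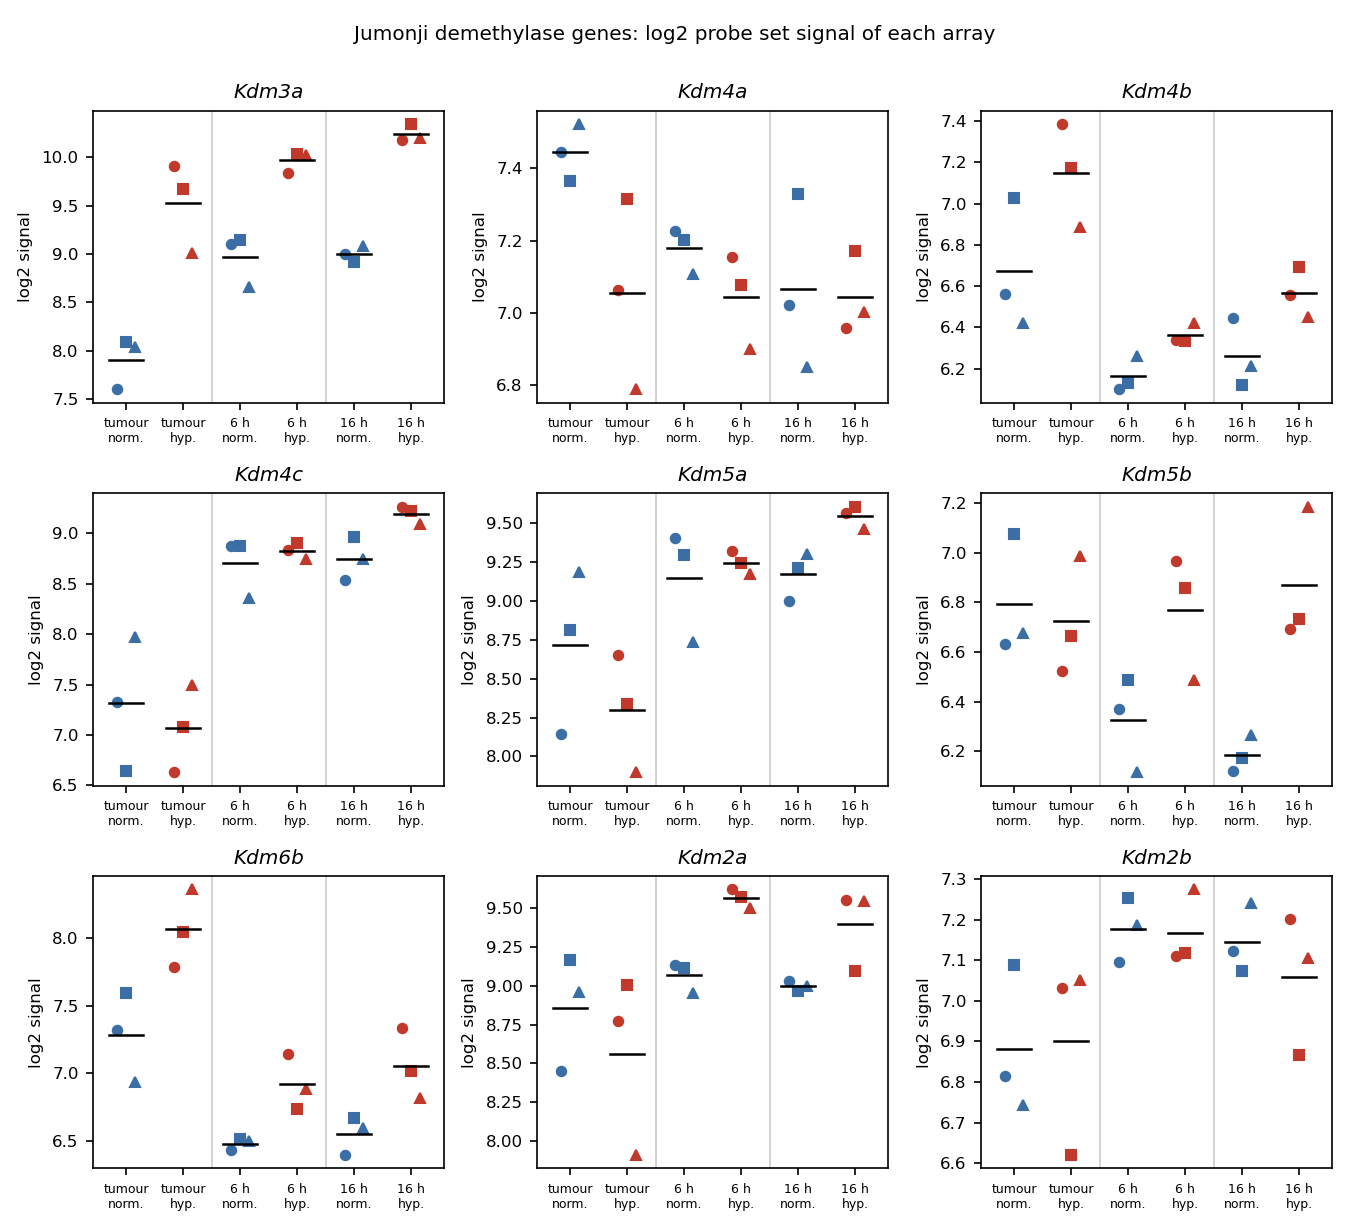
Log2 probe set signal (vertical axes, scaled per gene) of the 9 demethylase genes in the 6 groups (horizontal axes), with normoxic samples in blue, hypoxic samples in red and group means as bars. Circles, squares and triangles mark tumours 1, 2 and 3, cultures 6, 13 and 26 at 6 h, and cultures 22, 28 and 29 at 16 h. Kdm3a shows red above blue in all 3 settings, and Kdm4c is lower in all tumour samples than in all cultures.

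The genes most like Kdm3a were sought among 14323 other genes by Pearson's r over the 18 arrays, after the mean of each setting (tumours, 6 h, 16 h) had been taken off. They were Hk2, a hexokinase, at 0.950, the glucose transporter gene Slc2a1 at 0.949, the glycogen synthase gene Gys1 at 0.948, the collagen prolyl hydroxylase gene P4ha1 at 0.943 and the endoplasmic reticulum oxidase gene Ero1a at 0.939. Over the 12 culture arrays alone these r values lay between 0.959 and 0.977, and over the 6 tumour arrays between 0.922 and 0.981. The arrays share tumours, culture numbers and the oxygen groups, so these values describe likeness only. Since the oxygen groups enter r, genes chosen by it have hypoxic differences like those of Kdm3a, and no test of these is given. Their differences were 0.83 to 1.87 log2 units at 6 h and 0.85 to 2.27 at 16 h, with Hk2 at 1.17 and 1.24. Slc2a1, P4ha1 and Ero1a are also among the HIF targets counted below, so the likeness list and that count overlap. As a member of the HIF target list, P4ha1 had a call in culture. It was lost at 6 h without normoxic culture 6 or 26 or hypoxic culture 13 or 26 (limma, adjusted p up to 0.117). At 16 h it was lost without normoxic culture 22 (limma, adjusted p = 0.0552).

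KDM4 enzymes remove trimethylation of lysines 9 and 36. Of their genes, Kdm4b was higher in the hypoxic region of all 3 tumours and in the hypoxic cultures at both times, without passing a threshold. In all 3 tumours, 22.9% of probe sets were higher. In culture, 5.60% at 6 h and 6.60% at 16 h were higher without overlap. The normoxic and hypoxic signals of Kdm4b were 6.56 and 7.39 in tumour 1, 7.03 and 7.17 in tumour 2, and 6.42 and 6.89 in tumour 3. At 6 h the normoxic cultures were at 6.10, 6.13 and 6.26 and the hypoxic ones at 6.34, 6.34 and 6.42. At 16 h they were at 6.45, 6.12 and 6.21 and at 6.56, 6.69 and 6.45. The tumour regions overlapped, and the culture groups did not, although at 16 h the highest normoxic and the lowest hypoxic culture were both at 6.45. The differences were 0.48 ± 0.21 in tumours, 0.20 ± 0.11 at 6 h and 0.31 ± 0.11 at 16 h (SE, limma, adjusted p = 0.574, 0.984 and 0.374).

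Kdm4c, of the same subfamily, split the tumours. At 16 h it was at 8.54, 8.96 and 8.74 in normoxic and at 9.26, 9.22 and 9.09 in hypoxic cultures, a difference of 0.44 ± 0.15 (SE, limma, adjusted p = 0.307). At 6 h the groups overlapped, at 0.12 ± 0.15. In the tumours it was at 7.33 and 6.63 in the normoxic and hypoxic regions of tumour 1, 6.65 and 7.08 in tumour 2, and 7.97 and 7.49 in tumour 3. Kdm4a was the 1 member that was lower in every hypoxic tumour region, at 7.06, 7.31 and 6.79 against 7.45, 7.37 and 7.52 in normoxic tissue of the same tumours. This held for 11.0% of all probe sets. That difference, -0.39 ± 0.21, did not pass (SE, limma, adjusted p = 0.631). In culture Kdm4a differed by -0.13 ± 0.12 at 6 h and -0.02 ± 0.12 at 16 h, with overlapping groups.

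Kdm5b, an eraser of lysine 4 methylation, had the second largest difference at 16 h. It was at 6.12, 6.17 and 6.27 in normoxic cultures 22, 28 and 29 and at 6.69, 6.74 and 7.19 in the hypoxic ones. The groups did not overlap, and the difference of 0.69 ± 0.16 log2 units missed the threshold (SE, n = 3 per group, limma, adjusted p = 0.0698). Pairing cultures of the same number as blocks brought it past the threshold (limma, adjusted p = 0.0203). At 6 h Kdm5b was at 6.37, 6.49 and 6.12 in normoxic and at 6.97, 6.86 and 6.49 in hypoxic cultures. The highest normoxic and the lowest hypoxic culture were thus both at 6.49, and the difference was 0.45 ± 0.16 (limma, adjusted p = 0.799). In the tumours the regions overlapped, with gaps of -0.11, -0.41 and 0.31 in tumours 1, 2 and 3.

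Kdm5a, its close relative, was at 9.00, 9.21 and 9.30 in normoxic and at 9.57, 9.60 and 9.46 in hypoxic cultures at 16 h, a difference of 0.37 ± 0.15 (SE, limma, adjusted p = 0.504). At 6 h it differed by 0.10 ± 0.15, and this became -0.10 without normoxic culture 26, which was low for Kdm5a at 8.74. The 3 tumours differed in sign, with gaps of 0.51, -0.48 and -1.29.

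Kdm6b, which removes the Polycomb mark, was higher in the hypoxic region of all 3 tumours, as were 22.9% of all probe sets. In tumours 1, 2 and 3 it was at 7.32, 7.59 and 6.94 in normoxic and at 7.79, 8.04 and 8.36 in hypoxic regions, and these ranges did not overlap. The tumour difference was 0.78 ± 0.26 log2 units, or 1.72-fold (SE, n = 3 tumours, limma, adjusted p = 0.450, unadjusted p = 0.0213). Tumour 3 had the widest gap, and without it the difference was 0.46. In culture all hypoxic values stood above the normoxic ones at both times, as for 5.60% of all probe sets at 6 h and 6.60% at 16 h. The normoxic and hypoxic groups were at 6.43, 6.51 and 6.496 against 7.14, 6.74 and 6.88 at 6 h. At 16 h they were at 6.39, 6.67 and 6.59 against 7.33, 7.02 and 6.82. The culture differences were 0.44 ± 0.14 and 0.50 ± 0.14 (SE, limma, adjusted p = 0.667 and 0.168), and neither passed.

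The KDM2 genes encode lysine 36 demethylases that bind unmethylated CpG islands. Kdm2a was at 9.13, 9.11 and 8.96 in normoxic and at 9.62, 9.57 and 9.50 in hypoxic cultures at 6 h, a difference of 0.50 ± 0.12 (SE, limma, adjusted p = 0.286). At 16 h it was at 9.03, 8.97 and 9.00 against 9.55, 9.10 and 9.55, a difference of 0.40 ± 0.12 (SE, limma, adjusted p = 0.237). Hypoxic culture 28 lay below the other hypoxic cultures, and without it Kdm2a differed by 0.55 and passed (limma, adjusted p = 0.0286). In the tumours Kdm2a gaps were 0.32, -0.16 and -1.05. Kdm2b, the partner of the variant Polycomb complex PRC1.1, stayed within 0.09 log2 units of no difference in all 3 comparisons, with overlapping groups in each and 95% intervals from -0.53 to 0.57 in tumours and from -0.32 to 0.14 at 16 h.

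**Figure D2:**
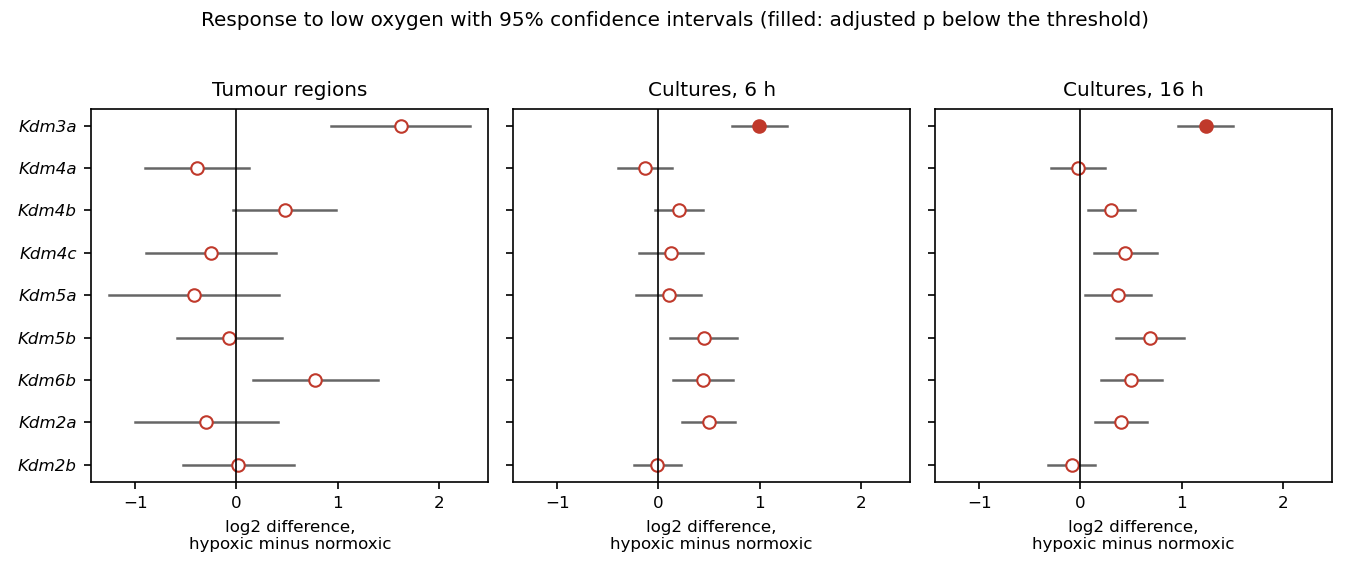
Difference between hypoxic and normoxic samples in log2 units (horizontal axes) for each demethylase gene (rows), in tumour regions and in cultures at 6 h and 16 h, with 95% confidence intervals from limma. Filled points passed the threshold of adjusted p = 0.05, which were Kdm3a at 6 h (1.00) and at 16 h (1.24), and the tumour intervals are the wider ones.

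Counted over the set, 1 of 9 genes rose at 6 h against 0.183% of all probe sets that rose (0.190% changed in either direction). At 16 h 1 of 9 rose against 0.603% (0.705% in either direction). A looser count over the same arrays took genes whose hypoxic cultures all stood above the normoxic ones. This held for 5 of 9 genes at 6 h, against 5.60% of all probe sets, and for 7 of 9 at 16 h, against 6.60%. Kdm5b at 6 h and Kdm4b at 16 h enter these counts by gaps too small to show in the rounded values above. None of the 9 stood lower without overlap, against 3.98% and 8.13%. These shares are over all probe sets, of which 11943 carry no gene symbol. No share over probe sets as bright as the members is given. The members were also chosen with earlier results of these data known. Kdm4a and Kdm2b were the members that overlapped at both times, and Kdm4c and Kdm5a those that overlapped at 6 h alone. The median difference of the 9 genes was 0.20 at 6 h and 0.40 at 16 h, where the medians of all probe sets were 0.01 and -0.03. The 2 culture comparisons use separate cultures. In tumours 2 of 9 genes stood higher without overlap, against 11.8% of all probe sets, and 1 lower, against 4.62%. The median of the 9 genes was -0.07 there, and that of all probe sets 0.10.

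The difference in response between 16 h and 6 h passed for no member and no probe set (0% called by limma, with 4.36% of probe sets and 0 of 9 members at an unadjusted p under 0.05). It ran from -0.09 for Kdm2a to 0.32 ± 0.21 for Kdm4c, whose 95% interval was -0.12 to 0.76. Time in normoxic culture passed for no member either. Between 6 h and 16 h, 4.86% of probe sets changed and 0 of 9 members did. At an unadjusted p under 0.05 (limma) stood 0 of 9 members and 6015 of 27363 probe sets. With so few members, a count of 0 lies near the 4.86% background and says little about the set. Their differences ran from -0.14 for Kdm5b to 0.10 for Kdm4b. The times may also be batches, which cannot be told apart.

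The tumour response was then set against the mean culture response. Here 1.17% of probe sets differed and 0 of 9 members did (limma, 2 of 9 members and 16.6% of probe sets at an unadjusted p under 0.05). Kdm2a was furthest below 0 at -0.75 ± 0.26 log2 units (SE, limma, adjusted p = 0.201), followed by Kdm5a at -0.65 ± 0.33 and Kdm5b at -0.64 ± 0.18 (limma, adjusted p = 0.130 for Kdm5b). Kdm3a was at 0.51 ± 0.27, with a 95% interval from -0.089 to 1.099 (limma, adjusted p = 0.368). That value was 0.16 without tumour 1, 0.83 without tumour 3 and 0.81 after quantile normalization. Single tumours moved these calls. Without tumour 1, Kdm5a (-1.12) and Kdm2a (-1.06) passed (limma, adjusted p = 0.0448 and 0.0472). Without tumour 2 Kdm4c passed at -0.87 (limma, adjusted p = 0.0335), and without tumour 3 Kdm5b passed at -0.83 (limma, adjusted p = 0.0396).

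The level in normoxic tumour regions was compared with that in normoxic cultures, where 64.3% of all probe sets differed (43.6% higher and 20.7% lower in tumours) and 7 of 9 members did, a share near that background. Kdm4c had the widest gap. It was at 7.33, 6.65 and 7.97 in the normoxic regions and between 8.36 and 8.96 in the 6 normoxic cultures, lower in tumours by 2.66-fold (-1.41 ± 0.23, SE, limma, adjusted p = 0.000115). Kdm3a was lower by 2.11-fold (-1.08 ± 0.17, limma, adjusted p = 8.86e-05), and Kdm2b by -0.28 ± 0.12 (limma, adjusted p = 0.0477), a call that was lost without either tumour 1 or tumour 3 and without any 1 of the 6 normoxic cultures (adjusted p up to 0.171). Kdm6b was higher in tumours by 1.70-fold (0.77 ± 0.16, limma, adjusted p = 0.000739). This fit shared 1 spread between tumours and cultures. The SD of Kdm4c was 0.66 in normoxic regions, against 0.21 and 0.30 in normoxic cultures at 16 h and 6 h. That of Kdm3a was 0.27 in normoxic regions, against 0.08 and 0.27. Where tumours vary more than cultures, the SE and p-value can understate the spread of the tumours.

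The smaller gaps turned on how arrays were scaled. Kdm4a (0.32), Kdm4b (0.46) and Kdm5b (0.54) were also higher in tumours as deposited, but array medians ran from 6.36 to 6.499 in tumours and from 6.02 to 6.19 in cultures, and all probe sets together were shifted by a median of 0.24. After each array's median was taken off, that shift was -0.07, and Kdm4a (0.0091), Kdm4b (0.15) and Kdm5b (0.23) no longer passed, while Kdm5a, at -0.44 as deposited, passed at -0.76 (limma, adjusted p = 0.0109). Kdm5a also passed without normoxic tumour 3 (-0.68, limma, adjusted p = 0.0101) or without normoxic 6 h culture 26 (-0.54, limma, adjusted p = 0.0269), and was at -0.16 without normoxic tumour 1. After quantile normalization Kdm4b (0.23) and Kdm5b (0.35) did not pass either, while Kdm4a passed at 0.48 (limma, adjusted p = 0.0188). With values as deposited, the Kdm4a call was lost without tumour 1, tumour 3 or any of 3 normoxic cultures. The calls of Kdm4b and Kdm5b were lost without tumour 2. Kdm3a, Kdm4c, Kdm2b and Kdm6b passed under both other scalings run, although Kdm3a was at -0.57 after quantile normalization and Kdm6b at 0.45 after median subtraction. The share of called probe sets that were higher in tumours was 67.8% as deposited, 34.0% after median subtraction and 57.5% after quantile normalization.

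**Figure D3:**
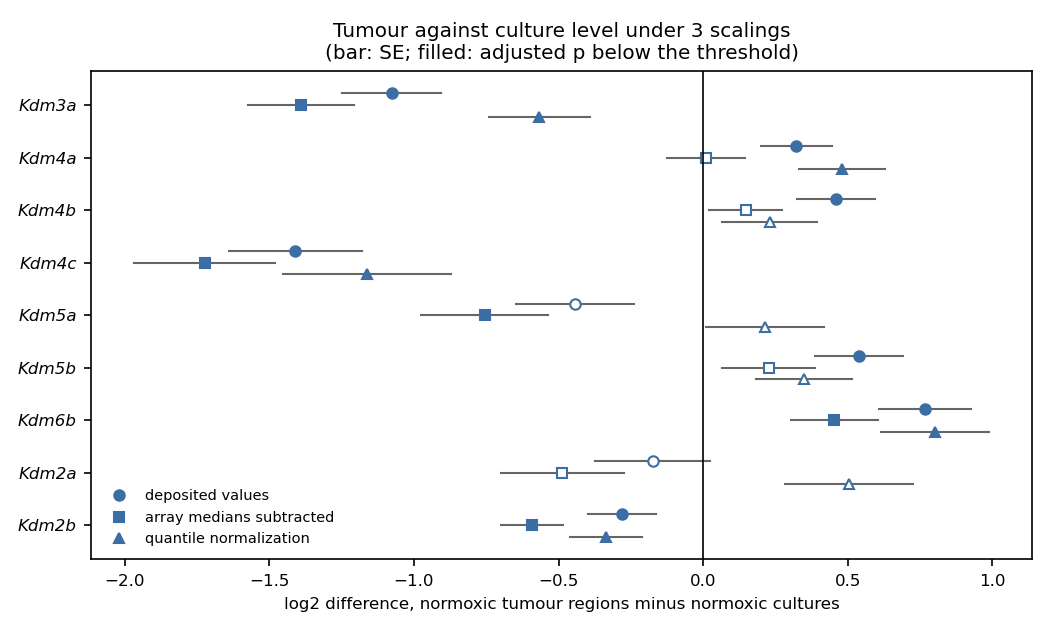
Log2 difference between normoxic tumour regions and normoxic cultures (horizontal axis) for each demethylase gene (rows), as deposited (circles), after subtraction of array medians (squares) and after quantile normalization (triangles), with bars of 1 SE and filled marks for an adjusted p under 0.05. Kdm3a and Kdm4c are lower in tumours and Kdm6b higher under all 3 scalings, while Kdm5a and Kdm2a change sign between them.

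Markers of other cell types differed in mean between the tumour regions, some lower and some higher in hypoxic tissue. None passed the threshold there (limma, 0 of 50 genes in 7 lists), but neither did any of the 27363 probe sets (0% called). That count therefore cannot show whether cell content differed. As background to the counts below, 64.8% of all probe sets had a higher mean in hypoxic regions, with a median difference of 0.10. The mean log2 signal of 12 macrophage markers was 8.02 to 8.37 in normoxic and 7.28 to 7.77 in hypoxic tumour regions, against 5.57 to 5.74 in all cultures. In the hypoxic regions 9 of the 12 had a lower mean than in the normoxic ones, C1qa (-1.60) lowest. The mean of 10 T and NK cell markers was 6.76 to 8.11 in normoxic regions, 6.20 to 6.56 in hypoxic regions and 5.16 to 5.49 in cultures, and 9 of the 10 had a lower mean in hypoxic regions. Pericyte and smooth muscle markers went the other way, with a mean over 5 genes of 6.28 to 6.38 in normoxic and 6.52 to 6.74 in hypoxic regions, higher in all 3 tumours, against 5.91 to 6.32 in cultures. All 8 neutrophil markers also had a higher mean in hypoxic regions, where most probe sets did. S100a8 was higher by 1.12 ± 0.52 and S100a9 by 0.62 ± 0.29 (SE), but Ngp by only 0.01 and Csf3r by 0.02. The ranges of the list's mean overlapped, at 5.14 to 5.41 and 5.37 to 5.90, against 4.67 to 4.95 in cultures. The means of endothelial, skeletal muscle and adipocyte markers overlapped between the regions. The normoxic array of tumour 3 correlated at 0.941 across probe sets with the mean normoxic culture, and the other 5 tumour arrays at 0.865 to 0.892. The part of these cells in the demethylase values was not tested. Of the glial and neural stem markers, Vim was brighter than 99.6% of probe sets in cultures and Sox2 than 62.2%, whereas Gfap (27.6%) and S100b (19.2%) were dim. The mean of the 7 measured markers was 6.54 to 6.78 in cultures, 7.07 to 7.27 in normoxic and 7.34 to 7.41 in hypoxic tumour regions, higher in the hypoxic region of all 3 tumours and without overlap. Its part in the demethylase values was not tested either.

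Lists of related genes were set beside the members. Of all probe sets, 0.190% passed at 6 h, 0.705% at 16 h and 0% in tumours. A count of 0 in a short list lies near those shares and says little about the list. Of 12 textbook HIF targets, 10 rose at 6 h and 10 at 16 h, and none passed in tumours. Car9, a carbonic anhydrase, was at 1.94 ± 0.19 in tumours. Bnip3 had the largest tumour difference of the 12, at 3.21 ± 0.37. Ndrg1, a stress response gene, followed at 2.06 ± 0.22 and Ero1a at 2.05 ± 0.30. At the other end, Egln3 was at 0.12 ± 0.60 and the lactate dehydrogenase gene Ldha at -0.01 ± 0.20 in tumours. Their medians were 1.54 at 6 h, 1.54 at 16 h and 1.65 in tumours. Ankrd37, an ankyrin repeat gene whose cores are printed above, rose most in culture, by 2.42 ± 0.21 at 6 h and 3.16 ± 0.21 at 16 h (SE, limma, adjusted p = 0.000106 and 1.27e-05). At 6 h the call of Adm, the adrenomedullin gene, was lost without any of 5 single cultures (adjusted p up to 0.216), and that of Ndrg1 without hypoxic culture 13 or 26 (adjusted p = 0.0629 and 0.0699). Of 5 other 2-oxoglutarate oxygenases measured, which include the oxygen sensors that mark HIF for destruction, Egln3 rose by 1.23 ± 0.14 and 1.44 ± 0.14 (SE, limma, adjusted p = 0.00139 and 0.000225), and Egln1 was at 0.74 and 0.48. The tumour minus culture response of Egln3 was -1.21 ± 0.57 (SE, limma, adjusted p = 0.315).

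Of 13 other genes with a Jumonji domain, 0 passed at 6 h (0.190% of all probe sets), 0 in tumours (0%) and 1 at 16 h (0.705%). That gene, Jmjd6, rose by 1.06 ± 0.16 at 16 h (SE, limma, adjusted p = 0.00550) and was at 0.58 ± 0.16 at 6 h (limma, adjusted p = 0.462). Riox2, a ribosomal oxygenase, was lowest of these in all 3 comparisons without passing, at -0.85 in tumours, -0.37 at 6 h and -0.47 at 16 h. The median of the 13 was 0.20 in tumours, -0.06 at 6 h and -0.01 at 16 h.

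Flavin-dependent demethylases use another chemistry, and 3 genes of that group and its CoREST partners were measured. Rcor2, a CoREST scaffold, rose by 1.01 ± 0.12 at 6 h and 0.80 ± 0.12 at 16 h (SE, limma, adjusted p = 0.00171 and 0.00601), while Kdm1a was at 0.04 and -0.14 and Kdm1b at 0.05 and 0.08. None of 15 measured histone lysine methyltransferases passed in any of the 3 comparisons (limma). That is near the share of all probe sets called, 0.190% at 6 h, 0.705% at 16 h and 0% in tumours. Suv39h1, a writer of lysine 9 trimethylation, had the smallest p of them at both times, at -0.38 ± 0.11 at 6 h and -0.36 ± 0.11 at 16 h (SE, limma, adjusted p = 0.607 and 0.270), and was at -0.52 ± 0.19 in tumours (limma, adjusted p = 0.502). None of 7 measured PRC1.1 partners of Kdm2b passed either, again near those shares. Their medians were -0.13, -0.02 and 0.08 in tumours, at 6 h and at 16 h.

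**Figure D4:**
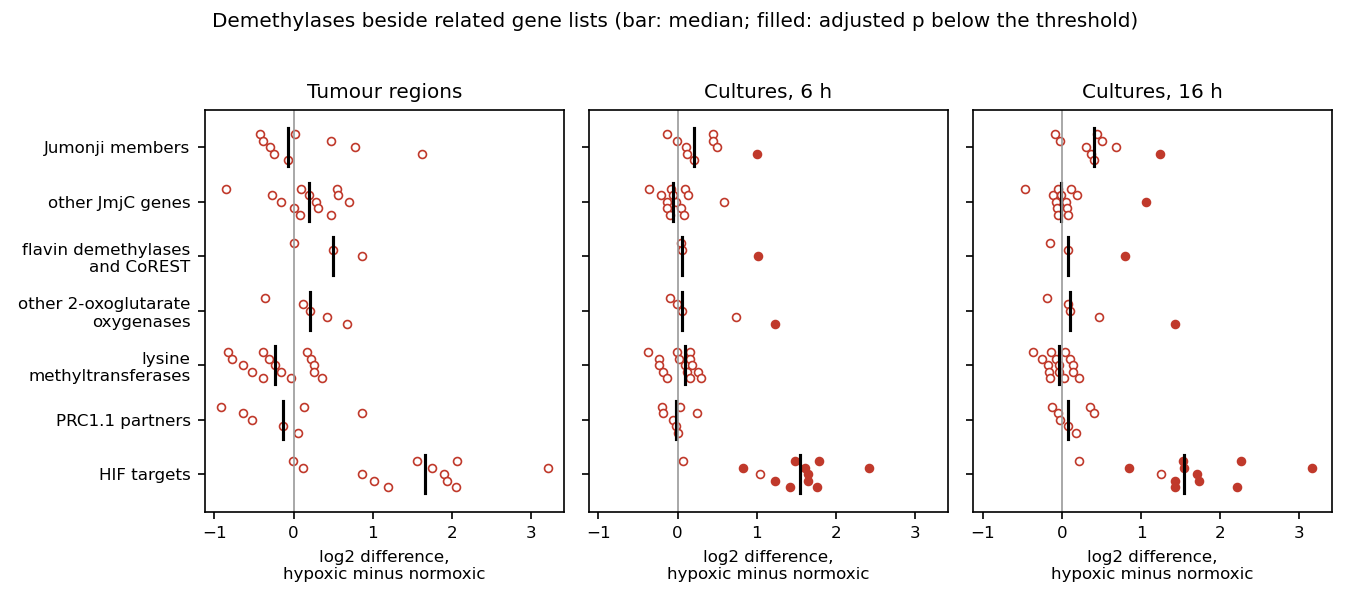
Log2 difference between hypoxic and normoxic samples (horizontal axes) for the members of 7 gene lists (rows), in tumour regions and in cultures at 6 h and 16 h, with list medians as bars and filled points for an adjusted p under 0.05. The HIF targets lie furthest right, with medians of 1.65, 1.54 and 1.54, and the median of the Jumonji demethylases is -0.07, 0.20 and 0.40.

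Among the 9 demethylase genes themselves, arrays with a high Kdm3a value within a setting were also high for Kdm4b (r = 0.80 over 18 arrays) and Kdm6b (r = 0.73), and Kdm4b with Kdm6b (r = 0.64). Kdm2a went with Kdm5a (r = 0.68). Kdm4a ran opposite to Kdm6b (r = -0.58) and to Kdm2b (r = -0.59). The arrays share the oxygen groups, tumours and culture numbers, so these are descriptions of the same 18 samples.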

How the data were processed

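Per the labels' protocols, RNA of each sample was amplified and read on an Affymetrix Rat Gene array. RMA in Partek 6.5b gave the deposited log2 signals of 27363 probe sets, per the submitters' processing notes. The sources used here do not give whether all 18 arrays were normalized together. Gene symbols came from the platform annotation, and a gene with several probe sets stood with its brightest. The number of arrays limits the precision.

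Tests were limma's (version 3.58.1, R 4.3.3), two-sided, and p-values were adjusted by Benjamini-Hochberg over every probe set, with calls at 0.05. The fits were the 6 tumour arrays with the tumour as block, the 12 culture arrays in 4 groups, all 18 arrays with 9 pairs as blocks for the tumour minus culture response, and all 18 arrays in 6 groups for levels. They were tested on simulated data. The members and lists were chosen with earlier results of these data known. All members are named, and from other lists those past the threshold or at most 2 with the smallest p, some of which are left out.

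Tumour regions are paired by animal. Culture numbers come from the labels, which do not call them pairs. Each array's deviation from its group mean was correlated with that of its partner. This gave 0.125, 0.193 and 0.192 at 6 h, 0.130, 0.188 and 0.307 at 16 h, and 0.128, 0.0357 and 0.273 in tumours. All culture values lay above the limit of 0.1, but tumour 2, a known pair by animal, lay below it at 0.0357. No values for cultures of different numbers are given either, so this check cannot decide whether the culture numbers are pairs. Alternatives were array median subtraction, quantile normalization, leaving out the dimmest 25% of probe sets, a trended robust prior, other blocks and leaving out each sample.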

Additional observations from a re-analysis of the deposited data

How the results depend on the processing

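The rise of Kdm3a in culture passed under every alternative run, with values of 0.84 to 1.09 log2 units at 6 h and 1.18 to 1.28 at 16 h when 1 array was left out (adjusted p at most 0.0271 and 0.00328). Its tumour difference lay between 1.28 and 1.95 over the tumours left out. Of 952 alternative values of single genes, 881 kept direction and side of the threshold, 34 lost a call, 11 gained one and 26 changed sign. The cause was not tested. The number of demethylase genes called in tumours was 0 to 1 with a tumour left out, and 1 in the fit of all 18 arrays with pairs as a replicate block. At 16 h it was 1 to 2 with a culture left out and 2 with the culture number as a replicate block, which changed no demethylase call other than that of Kdm5b. For the tumour minus culture response it was 0 to 2. Between normoxic tumour regions and normoxic cultures it was 7 as fitted and 5 to 6 with 1 array left out.

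Subtraction of array medians turned Kdm2b in tumours to -0.027 and Kdm4a at 16 h to 0.011. Quantile normalization turned Kdm5a to 0.21 and Kdm2a to 0.50 between normoxic tumours and cultures. With 1 sample left out, the tumour difference ran from -0.88 to 0.016 for Kdm5a, -0.26 to 0.10 for Kdm5b, -0.61 to 0.080 for Kdm2a and -0.13 to 0.26 for Kdm2b. At 6 h it ran from -0.050 to 0.21 for Kdm4c, -0.10 to 0.23 for Kdm5a and -0.063 to 0.028 for Kdm2b, and at 16 h from -0.13 to 0.11 for Kdm4a and -0.16 to 0.0087 for Kdm2b. The 16 h minus 6 h response ran from -0.077 to 0.18 for Kdm6b, -0.17 to 0.056 for Kdm2a and -0.15 to 0.019 for Kdm2b. The tumour minus culture response ran from -0.014 to 0.47 for Kdm6b and -0.076 to 0.31 for Kdm2b, and the tumour level of Kdm2a from -0.33 to 0.030.

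Over all probe sets, the count called in tumours was 0 as fitted, 563 without tumour 1, 22 with a trended robust prior and 1408 in the fit of all 18 arrays. Leaving out a culture took the count of 52 at 6 h to between 27 and 50 and that of 193 at 16 h to between 74 and 171. The count of 319 for the tumour minus culture response lay between 44 and 1365 with 1 sample or pair left out and was 638 after quantile normalization. That of 17601 between tumours and cultures was 10489 after quantile normalization. The count of 1330 for time in normoxic culture lay between 363 and 907 with 1 culture left out and was 823 after quantile normalization. With 3 arrays per group, small differences like those of Kdm2b cannot be resolved.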

Other observations

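The genes most like Kdm4b and Kdm6b were looked at after their values were seen, by the same r over 18 arrays with setting means taken off. The 5 most like Kdm4b were Eno2 (enolase) at 0.927, Ldb1 at 0.920, Pkm (pyruvate kinase) at 0.916, Tgfbr3 at 0.903 and Gpi (glucose phosphate isomerase) at 0.882. Over the 6 tumour arrays alone the enzyme genes Eno2, Pkm and Gpi stood at 0.978, 0.981 and 0.951, and over the 12 culture arrays at 0.893, 0.813 and 0.859. The 5 most like Kdm6b were the olfactory receptor gene Or6c6h at 0.882, Slc27a1 at 0.868, Vegfa, the vascular growth factor gene, at 0.851, Ampd3 at 0.848 and Bcl6, a transcriptional repressor gene, at 0.836. These are descriptions of genes picked for their likeness, with no test.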
